A study of Homo sapiens with 8 samples.

Results

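Gene desert regions are the accessible chromatin regions of MCF10A cells that lay over 100 kb from every transcription start site (TSS) of a protein-coding or long non-coding RNA (lncRNA) gene. Peaks of 4 lists were merged where they shared 1 bp or more, which gave 126658 regions, and 8263 of them (6.52%) met the distance rule. They were set beside 78880 intermediate regions, 3 to 100 kb from a TSS, and 39515 proximal regions, within 3 kb of a TSS.

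The study followed epithelial-mesenchymal transition (EMT) in MCF10A, a human breast epithelial cell line that is immortal but forms no tumours, by ATAC-seq, in which a transposase tags DNA that is free of nucleosomes. The groups were MCF10A cells given solvent and MCF10A cells given 5 ng/ml of the cytokine TGFβ1 for 6, 24 or 72 h, with 2 replicates per group and 8 libraries in all. The labels place the solvent samples at 0 h, whereas a figure legend of the study describes 72 h of solvent. The authors called peaks on both replicates of a group together, so each group is 1 list. Differences between lists could not be set against replicate error, and no test was made. Intervals are 95% intervals that cover counting error only, and the number of reads left after filtering, on which the lists rest, is unknown. The promoters of KRT5, KRT14, TP63, CDH1 and EGFR, genes of basal mammary epithelium, carried a peak within 1 kb of a TSS in every list. The promoters of CD3E, ALB and MYOD1, which mark other cell types, carried none, PTPRC carried a peak in the 3 TGFβ1 lists and PECAM1 in all 4.

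Accessible sites far from promoters are often enhancers, which bind transcription factors and act on a promoter through looping of the DNA between them. Genes of developmental regulators and of neuronal adhesion proteins are known for the long gene-poor stretches around them, in which such elements can lie at great distance from the promoter. TGFβ1 acts through SMAD factors, which bind together with others such as AP-1, the dimers of JUN and FOS proteins, and the epithelial repressors SNAIL and ZEB bind a form of the E-box.

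The sequences shown are those of desert regions with the clearest gain, loss or stability, and of the region farthest from any TSS. Each reaches 100 bp to either side of the summit of the region's strongest peak, plus strand, 5′ to 3′, from the GRCh38 genome, with matches to the searched motifs in capitals. The motifs, searched on both strands, were AP-1 (TGACTCA or TGAGTCA), TEAD (GGAATG), RUNX (TGTGGTT), ETS (CNGGAAGT), C/EBP (TTGCNNAA), E-box (CACCTG), GRHL (AACNGGTT), KLF (GGGNGNGGC), SMAD (GTCTNGAC), OCT (ATGCAAAT) and the CTCF core.
EFNA5 desert, opened further by 72 h (AP-1 in capitals), chr5:106392834-106393034: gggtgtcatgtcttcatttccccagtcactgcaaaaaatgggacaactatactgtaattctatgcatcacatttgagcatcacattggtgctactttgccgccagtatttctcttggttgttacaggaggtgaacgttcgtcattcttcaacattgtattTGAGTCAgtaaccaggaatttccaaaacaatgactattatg
PSAT1 to TLE4, no solvent peak (AP-1), chr9:78567366-78567566: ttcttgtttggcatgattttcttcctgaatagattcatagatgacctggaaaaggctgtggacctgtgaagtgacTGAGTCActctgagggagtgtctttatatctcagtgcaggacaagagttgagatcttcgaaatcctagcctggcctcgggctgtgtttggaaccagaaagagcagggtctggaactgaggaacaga
CSNKA2IP to EPHA3, no solvent peak (KLF), chr3:88713338-88713538: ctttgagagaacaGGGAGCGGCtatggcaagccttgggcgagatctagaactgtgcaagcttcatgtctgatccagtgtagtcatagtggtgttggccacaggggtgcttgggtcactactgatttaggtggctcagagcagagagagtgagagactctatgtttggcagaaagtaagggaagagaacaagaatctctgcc
TGFB2 desert, in every list and among the strongest in solvent (RUNX, TEAD and RUNX), chr1:218706235-218706435: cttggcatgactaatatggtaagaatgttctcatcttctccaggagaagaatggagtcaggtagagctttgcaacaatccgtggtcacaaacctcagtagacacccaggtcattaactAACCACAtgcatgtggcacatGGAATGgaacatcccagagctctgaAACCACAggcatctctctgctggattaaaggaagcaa
TGFB2 desert, in every list and among the lowest 72 h ratios (no match), chr1:218712328-218712528: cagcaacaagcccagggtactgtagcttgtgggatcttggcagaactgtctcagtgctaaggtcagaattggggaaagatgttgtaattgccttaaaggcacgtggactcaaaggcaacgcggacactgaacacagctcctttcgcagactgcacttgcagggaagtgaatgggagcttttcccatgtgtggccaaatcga
ROBO1 side, lost at 72 h (E-box, TEAD and E-box), chr3:78481169-78481369: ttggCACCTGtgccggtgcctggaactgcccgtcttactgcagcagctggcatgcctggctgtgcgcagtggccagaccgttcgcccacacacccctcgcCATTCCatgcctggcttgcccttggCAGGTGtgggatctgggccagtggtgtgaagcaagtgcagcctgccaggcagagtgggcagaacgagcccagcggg
TFAP2A desert, lost from 24 h (C/EBP), chr6:9646448-9646648: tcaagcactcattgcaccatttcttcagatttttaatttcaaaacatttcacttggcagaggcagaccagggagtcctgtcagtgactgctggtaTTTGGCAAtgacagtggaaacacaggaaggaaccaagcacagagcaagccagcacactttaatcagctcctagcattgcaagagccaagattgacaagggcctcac
TP63 side, lost at 72 h (no match), chr3:189509175-189509375: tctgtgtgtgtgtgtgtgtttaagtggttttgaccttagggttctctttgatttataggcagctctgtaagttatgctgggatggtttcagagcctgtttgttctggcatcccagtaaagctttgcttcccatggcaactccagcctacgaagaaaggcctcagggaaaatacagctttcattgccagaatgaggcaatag
farthest from any TSS (TEAD), chr1:125183674-125183874: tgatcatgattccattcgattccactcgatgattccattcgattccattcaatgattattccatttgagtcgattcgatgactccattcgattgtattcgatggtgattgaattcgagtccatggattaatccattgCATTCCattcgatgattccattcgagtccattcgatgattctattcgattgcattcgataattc

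The name gene desert held for most of the regions but not for all. Of the 8263, 5612 (67.9%, interval 66.9 to 68.9) lay outside every protein-coding and lncRNA gene, and 2651 (32.1%, interval 31.1 to 33.1) lay inside such a gene, far downstream of its start. A protein-coding gene held 1728 of them (20.9%), and 67 (0.811%) touched an exon. Intermediate and proximal regions lay inside a gene in 63.1% and 91.7% of cases. The median distance to the nearest TSS was 153 kb, 271 regions (3.28%) were over 500 kb away, and the median distance to the nearest protein-coding TSS was 239 kb. The members nearest to the 100 kb limit lay 100036 bp from a TSS, and the nearest region that missed it lay 99984 bp away.

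Sequence over 100 kb from every TSS made up 497 Mb, or 17.1% of the 23 chromosomes, and carried 16.6 regions per Mb, against 49.0 per Mb elsewhere, a ratio of 2.95. Open sites were spread over much of it, since 984 of the 1205 desert stretches of 100 kb or more held at least 1 region. Chromosome 2 had the most desert regions, 890, and chromosome 19, with 3.50 Mb of such sequence, had none. These lengths leave out unknown bases only, so stretches where reads map poorly are counted in the densities. Desert regions were narrower than proximal ones, with a median width of 302 bp against 561 bp and 340 bp for intermediate regions. Their median GC content at the summit was 43.3%, against 46.8% and 55.7%, and 26.5% of them held no CpG there, against 17.0% and 7.21%.

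TGFβ1 was followed by more peaks in the deserts at every time. The solvent list held 4222 desert peaks, the 6 h list 6129, the 24 h list 7344 and the 72 h list 7539. The 72 h list thus held 1.79 times as many as solvent (interval 1.72 to 1.85), with ratios of 1.45 at 6 h and 1.74 at 24 h. Intermediate peaks were 1.46 times as many at 72 h (interval 1.44 to 1.48) and proximal peaks 1.14 times (interval 1.12 to 1.16). The desert share of all peaks grew from 4.90% under solvent to 5.69%, 6.20% and 6.46% with time. The strength of a peak is given as the AUC, which sums how far the significance exceeds the limit of the peak caller along the peak. The AUC thus rises with both the height and the width of a peak. It has no unit, and no scaling made it comparable between lists. Desert peaks had a median AUC of 545 under solvent. After 6 h of TGFβ1 it was 613, after 24 h 622 and after 72 h 614, and single peaks ran from 200, the limit set by the authors, to 7843. The step was largest in the first 6 h, and the lists of 24 and 72 h were close in number and AUC.

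Of the 15 possible patterns over the 4 lists, 4 held most of the desert. Regions with a peak in all 4 lists numbered 3957 (47.9%, interval 46.8 to 49.0). Another 1663 (20.1%, interval 19.3 to 21.0) had a peak at 6, 24 and 72 h and none in solvent, 1075 (13.0%) at 24 and 72 h alone, and 715 (8.65%) at 72 h alone. Intermediate regions were in every list in 58.0% of cases and proximal ones in 74.8%, and had the 3 TGFβ1 peaks without solvent in 16.4% and 8.77%. A region without a solvent peak was thus more frequent in the deserts, at 50.1% (4141 regions), than at intermediate distance, at 39.4%, or near a TSS, at 22.6%. In such bulk samples, more cells with an open site and a more open site in each cell cannot be told apart.

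**Figure D1:**
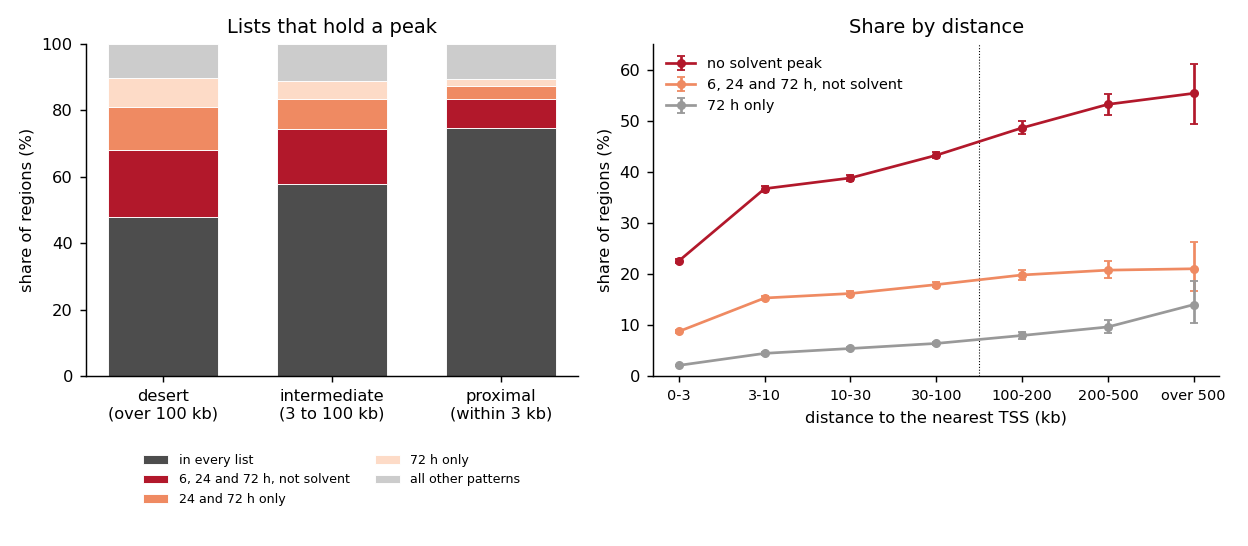
Left, share of regions (%) by the lists that hold a peak, for desert, intermediate and proximal regions. Right, share of regions (%) against distance to the nearest TSS (kb), with 95% Wilson intervals as bars and the 100 kb limit dotted. Regions without a solvent peak rise from 22.6% within 3 kb to 55.4% over 500 kb.

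The share without a solvent peak rose with distance in every step. It was 36.7% from 3 to 10 kb, 38.8% from 10 to 30 kb, 43.2% from 30 to 100 kb, 48.6% from 100 to 200 kb and 53.2% from 200 to 500 kb. Over 500 kb from a TSS it was 55.4% (interval 49.4 to 61.2, 150 of 271), and the interval overlapped that of the step before. The share open at 72 h alone rose from 2.14% within 3 kb to 14.0% over 500 kb. Desert regions inside genes and outside genes were alike in this respect, with 49.2% (interval 47.3 to 51.1) and 50.6% (interval 49.2 to 51.9) lacking a solvent peak.

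These shares depended on how many peaks each list held. When the 3 longer lists were cut to their 86209 strongest peaks, as many as solvent had, 5838 desert regions remained, and the number of desert peaks at 72 h was 1.19 times that of solvent (interval 1.14 to 1.24). Intermediate peaks were then 1.04 times and proximal peaks 0.920 times as many. The share with the 3 TGFβ1 peaks and no solvent peak fell to 8.15%, against 6.23% and 2.60%, and the share with no solvent peak to 29.4%, against 20.4% and 8.80%. Both settings gave the same order, desert over intermediate over proximal, with sizes that differed by more than 1.5 times.

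The AUC moved with distance, so the comparison was repeated within ranges of the highest AUC of a region. Between 400 and 800, 56.1% of 2595 desert regions lacked a solvent peak, against 45.0% of intermediate and 32.4% of proximal regions. Between 800 and 1600 it was 19.2%, 13.4% and 7.50%. From 1600 upward it was 2.35% (interval 1.64 to 3.36), 1.76% (interval 1.57 to 1.98) and 0.474%, and the intervals of desert and intermediate regions overlapped. The order thus held in each range, while the strongest desert regions were nearly all open in solvent too.

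Read by time, 1997 desert regions (24.2%) were gained at 6 h, which means that they had a peak at 6 h and none in solvent, where 19.3% of all regions were. At 24 h 3250 (39.3%) were gained, against 27.6% of all regions, and at 72 h 3501 (42.4%), against 27% of all. Losses were few in the lists as deposited. At 6 h 39 desert regions (0.472%) had lost the solvent peak, where 0.465% of all regions had. At 24 h it was 83 (1.00%), against 1.21% of all, and at 72 h 143 (1.73%), against 2.24%. With lists of equal length the 72 h losses were 564 (9.66%) in the deserts, against 11.8% of intermediate and 10.5% of proximal regions, so the number of losses moved over 1.5-fold with the length of the lists. Desert regions therefore lay above the background in gains at each time and at or below it in losses.

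In the lists as deposited, gains in the deserts were kept more often and came later than elsewhere. This was not repeated with lists of equal length or within AUC ranges. Desert regions had a median highest AUC of 620, against 714 for intermediate and 1271 for proximal regions. Of the 1997 regions first open at 6 h, 1711 (85.7%, interval 84.1 to 87.1) still had a peak at 72 h, against 79.9% of intermediate and 65.5% of proximal ones. Of those first open at 24 h, 75.2% were still open at 72 h, against 70.4% and 58.9%. Among regions without a solvent peak, 48.2% first opened at 6 h in the deserts, against 54.2% and 62.5%, and 17.3% first opened at 72 h, against 13.8% and 9.46%. Late peaks had a low AUC. The median AUC at 72 h was 1038 for regions in every list, 489 for those open at 6, 24 and 72 h, 357 for those open at 24 and 72 h and 263 for those open at 72 h alone, of which 68.3% were under 300.

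Regions that were open before and after treatment were compared by the log2 ratio of AUC to solvent, minus the median ratio of all regions. The median was subtracted since the AUC was not scaled between lists. That median was 0.51, 0.50 and 0.39 for 6, 24 and 72 h. Relative to it, the medians of desert regions for these times were 0.12, 0.21 and 0.25 (last interval 0.23 to 0.27, 3979 regions). Intermediate regions had 0.05, 0.09 and 0.11, and proximal regions -0.07, -0.13 and -0.16. Per base of peak, the 72 h medians of the AUC ratio were 0.12 in the deserts, 0.05 and -0.07, in the same order at smaller size.

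**Figure D2:**
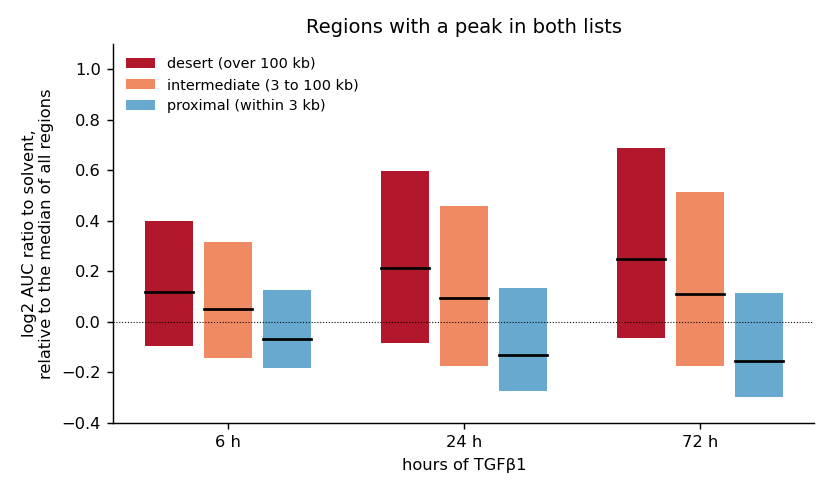
Log2 AUC ratio to solvent, relative to the median of all regions, at 6, 24 and 72 h of TGFβ1. Bars span the middle quartiles over regions and black lines are medians; desert regions lie highest at each time, with a median of 0.25 at 72 h.

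The relative rise was larger in regions that were weak in solvent. This follows in part from the grouping, since the solvent AUC is the divisor of the ratio and both peaks had to reach 200. With a solvent AUC of 200 to 400, desert regions had a relative median of 0.57 at 72 h (interval 0.53 to 0.62), with 0.43 at intermediate distance and 0.23 near a TSS. With 800 to 1600 the values were 0.11, 0.03 and -0.09. From 1600 upward they were -0.04, -0.10 and -0.23, and desert regions again had the highest value. Regions at least 2-fold above the median ratio numbered 166 (4.07%) in the deserts at 6 h, against 2.83% of all regions in both lists. They numbered 458 (11.3%) at 24 h, against 6.4%, and 595 (14.95%) at 72 h, against 7.93%. Regions at least 2-fold below it numbered 17 (0.416%) at 6 h, against 0.271%, 48 (1.19%) at 24 h, against 1.32%, and 57 (1.43%) at 72 h, against 1.83%. Desert regions thus lay above the background in rises at each time. For falls the intervals were 0.260 to 0.666% at 6 h, 0.898 to 1.57% at 24 h and 1.11 to 1.85% at 72 h. Each held the background value, so falls did not differ clearly from it.

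The strongest desert regions without a solvent peak, chosen by their AUC at 72 h, were built up from 6 to 72 h. The largest, chr3:88713007-88713892, lay in no gene, 374 kb from CSNKA2IP and 394 kb from EPHA3, an ephrin receptor, and its AUC climbed from 981 after 6 h to 2593 after 24 h and 3429 after 72 h. The region chr3:31004129-31004704, 109 kb from GADL1, had 547, 1904 and 2468. Both rose from 6 to 24 h and again to 72 h. Another 2 of the 5 strongest lay on chromosome 8, between ANGPT1, an angiopoietin, and RSPO2, a WNT agonist, with AUCs of 1442, 2510 and 2770, and between TSPYL5 and MTDH with 460, 1250 and 2357. None of the 5 had an AP-1 motif at the summit. The strongest that did, a region chosen after its values were seen, was chr9:78566990-78568040, 270 kb from PSAT1, with AUCs of 1217, 2204 and 2342. Of the 28 regions of this pattern with an AUC of 1600 or more, 8 (28.6%, interval 15.3 to 47.1) had the motif.

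**Figure D3:**
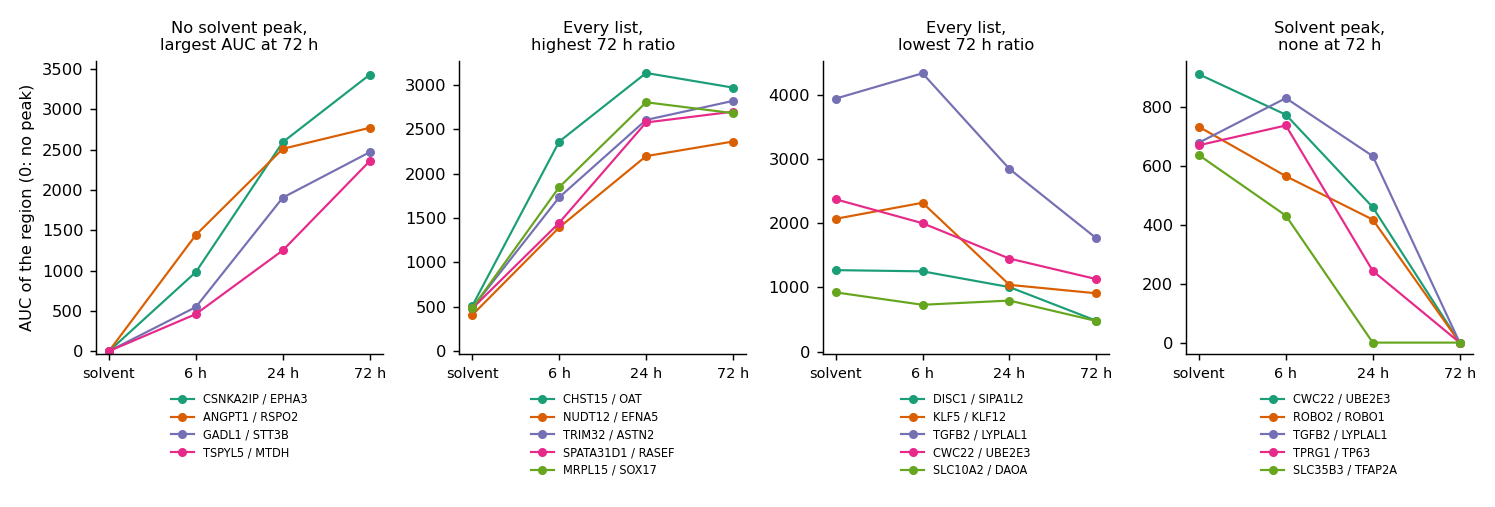
AUC of named desert regions in solvent and at 6, 24 and 72 h (0 where there is no peak), each named by the protein-coding genes on either side. The 4 gained regions shown reach 2357 to 3429 at 72 h, and 3 of the 5 lost regions are still above 400 at 24 h.

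Among regions open in every list, the 5 with the highest 72 h ratios started low and rose early. A low solvent AUC follows in part from the choice by ratio. The region chr10:124211730-124212489, 118 kb from CHST15, a sulfotransferase, went from an AUC of 507 in solvent to 2363, 3138 and 2973 after 6, 24 and 72 h. The region chr5:106392591-106393164, 995 kb from EFNA5, the ligand ephrin-A5, went from 405 to 1394, 2199 and 2364, and its printed sequence holds AP-1. The region chr9:116951711-116952805, within the gene ASTN2, went from 484 to 1734, 2608 and 2823. These values lay 2.16, 2.15 and 2.15 above the median log2 ratio, and most of each rise was in place by 24 h. The other two were chr9:82129247-82130060, inside a lncRNA gene 140 kb from SPATA31D1, and a region near MRPL15, with relative ratios of 2.10 and 2.09.

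Of the 5 with the lowest ratios, 2 had a higher unscaled AUC at 6 h than in solvent, and all 5 were lowest at 72 h. A 72 h value below solvent follows from the choice by ratio. The region chr1:218711929-218712965, 278 kb from TGFB2, the gene of a TGFβ ligand, had an AUC of 3937 in solvent, followed by 4331 by 6 h, 2843 by 24 h and 1765 by 72 h of TGFβ1. The region chr13:73368571-73369425, 294 kb from KLF5, a Krüppel-like factor of epithelia, had 2068, 2318, 1041 and 910. The AUC of both rose at 6 h before it fell, though by less than the median log2 ratio of all regions, 0.51 at 6 h. The region chr2:180359665-180360538, 352 kb from CWC22, had 2372, 2000, 1450 and 1131 and fell at each step. The region chr1:232292612-232293255, 110 kb from SIPA1L2, had the lowest relative ratio, -1.79, with 1270 in solvent and 482 at 72 h, and was the only 1 of the 5 with AP-1 at the summit. The region chr13:104650340-104650781, 815 kb from DAOA, had 924 in solvent and 479 at 72 h.

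Of the 5 strongest desert regions in solvent, 4 stayed close to the median ratio at 72 h. The region chr5:82405203-82406824, 127 kb from RPS23, had an AUC of 5866 in solvent and 7843, 7357 and 7339 at 6, 24 and 72 h, which is -0.07 relative to the median ratio. The region chr1:218705384-218706922, 271 kb from TGFB2, had 5428, 7077, 7583 and 7608, or 0.10 relative to the median. It stood 5.01 kb from the falling region of the same desert. The region chr5:155402829-155403906, 389 kb from KIF4B, had a relative ratio of -0.18, chrX:29661968-29663550, within IL1RAPL1, had -0.22, and a region on chromosome 8 between ST3GAL1 and ZFAT had -0.62, with an AUC of 5733 in solvent and 4892 at 72 h. Of the 3957 desert regions in every list, 40 (1.01%) were highest in solvent, whereas 1138 (28.8%) peaked after 6 h, 1613 (40.8%) after 24 h and 1166 (29.5%) after 72 h. The solvent share was similar elsewhere, at 1.101% of intermediate and 0.903% of proximal regions, and the desert interval overlapped both. The AUC was not scaled between lists, and the median region lay above solvent at each time. The low solvent share is thus not a feature of the deserts. Intermediate regions were highest at 6, 24 and 72 h in 36.7%, 38.9% and 23.3% of cases. Proximal regions were most often highest at 6 h, in 60.6% of cases.

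Lost regions were weak in solvent and scattered. The 143 with a solvent peak and none at 72 h had a median solvent AUC of 277 and a highest of 912, and 121 were under 400. Of the 1420 desert regions under 400 in solvent 8.52% were lost, and of the 2702 at 400 or more 0.814% (22 regions). They fell to 130 nearest protein-coding genes, with at most 3 at 1 gene, EPM2A and ROBO1, which were named after the count was seen. Closing was spread over time, since 74 were still open at 24 h, 46 had a peak at 6 h and not at 24 h, and 23 had none at any time of TGFβ1.

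The strongest lost region, chr2:180367845-180368188, had an AUC of 912 in solvent, 775 at 6 h and 460 at 24 h. It lay 7.31 kb from the falling region near CWC22, so both neighbours declined. The region chr3:78481118-78481436, 126 kb from ROBO1, an axon guidance receptor, had 734, 566 and 418. The region chr3:189509151-189509601, 122 kb from TP63, the p63 factor of basal epithelium, had 671, 738 and 244. In AUC, which was not scaled between lists, the first and second fell from 6 h on. The AUC of the TP63 region fell only after 6 h, and its rise at 6 h was below the median ratio of all regions. The region chr1:218642615-218642891, 208 kb from TGFB2, had 680, 831 and 634, and the region chr6:9646352-9646708, 758 kb from TFAP2A, had 637 and 432 and no peak at 24 h.

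AP-1 was the most frequent motif in the deserts. It was at the summit of 3512 desert regions (42.5%, interval 41.4 to 43.6), against 36.9% of intermediate and 21.0% of proximal regions. At an AUC of 800 to 1600, regions in every list had it in 47.9% of desert cases (interval 45.5 to 50.4) and 40.0% of intermediate cases (interval 39.2 to 40.7). Regions of the 3 TGFβ1 lists without solvent did not differ so clearly, with 45.1% and 42.5% in the same range and 46.8% and 44.4% at 400 to 800, and with overlapping intervals. From 1600 upward these had 28.6% of 28 and 35.9% of 270, in the opposite order and again with overlapping intervals. TEAD was found in 18.0% of desert regions, against 17.3% and 12.6%, and RUNX in 8.57%, against 7.29% and 4.44%. KLF, a motif rich in G and C, was found in 3.51%, against 6.76% and 20.8%, and the CTCF core in 1.92%, against 3.32% and 2.89%. The E-box was found in 14.7%, against 18.1% and 18.4%, and SMAD in 1.55%, against 1.42% and 1.18%. GC content differed between the 3 groups, as given above, and its part in the motif shares was not tested.

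**Figure D4:**
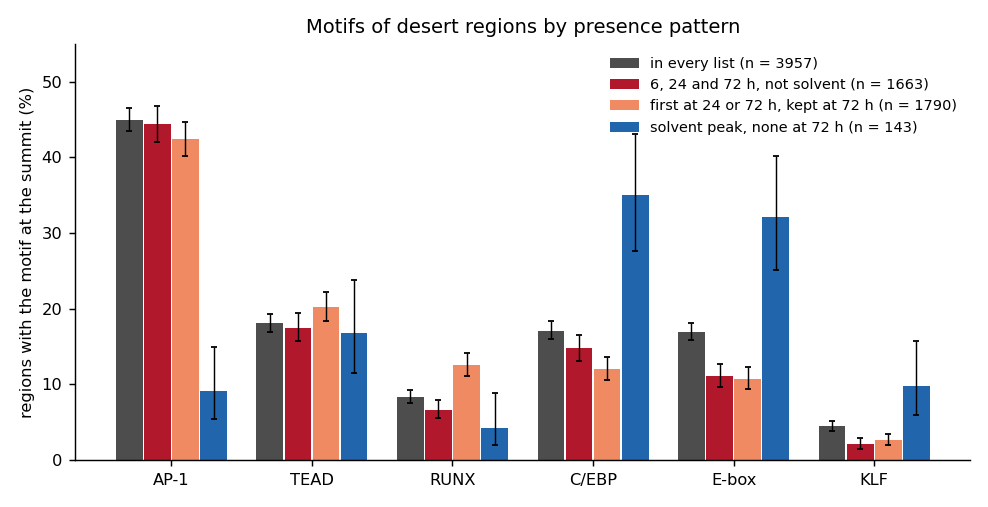
Share of desert regions (%) with a motif within 100 bp of the summit, by presence pattern, with 95% Wilson intervals. Regions lost at 72 h hold AP-1 in 9.09% of cases and the other groups in 42.4% to 45.0%.

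The motifs differed between opening and closing desert regions. Over all AUCs, AP-1 was at similar shares in regions of every list, at 45.0%, and of the 3 TGFβ1 lists, at 44.4%. Regions of late opening, at 24 or 72 h and kept at 72 h, had it in 42.4%, with overlapping intervals. Weaker regions differed within AUC ranges. At 400 to 800, regions of every list had AP-1 in 38.4% (interval 35.5 to 41.3). Those of the 3 TGFβ1 lists had it in 46.8% (interval 43.5 to 50.04). Under 400 the shares were 23.8% and 39.95% (interval 35.3 to 44.7), again without overlap. Intervals overlapped at 800 to 1600, with 47.9% and 45.1%, and from 1600 upward, with 48.5% and 28.6%. In the 143 lost regions AP-1 was at 9.09% (interval 5.39 to 14.9). Regions of every list that stayed under 400 had it in 23.8% (interval 16.0 to 33.9), and this interval did not overlap that of the lost regions. C/EBP was at 35.0% of lost regions (interval 27.6 to 43.1) and at 17.1% of those in every list, and the E-box at 32.2% (interval 25.1 to 40.2) and 16.9%. Among regions of every list under 400, C/EBP was at 22.6% and the E-box at 26.2%, and these intervals overlapped those of the lost regions.

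RUNX was found more often in late than in early opening regions, though most of either kind lacked it. It was at 6.61% of the regions open at 6, 24 and 72 h (interval 5.52 to 7.91) and at 224 of the 1790 that opened at 24 or 72 h and stayed (interval 11.1 to 14.1). Intermediate regions differed in the same direction, with 7.87% and 10.5%. Regions at least 2-fold above the median ratio at 72 h had AP-1 in 48.7% of 595 cases and RUNX in 11.1%. The 57 regions at least 2-fold below it had AP-1 in 5 cases (8.77%), C/EBP in 19 (33.3%) and the E-box in 14 (24.6%), close to the lost regions. A motif match is a description of the sequence, and no factor was measured.

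Desert regions stood in groups as well as alone. With neighbours chained at gaps of up to 20 kb, 906 clusters of 3 or more regions held 3936 regions (47.6%), and 2533 (30.7%) stood alone. The median cluster spanned 20.0 kb and the longest 115 kb. Lone regions lacked a solvent peak in 57.2% of cases (interval 55.3 to 59.2), regions in pairs in 50.6%, and regions in clusters of 3 or more in 45.3% (interval 43.8 to 46.9). Lone regions were also lower, with a median highest AUC of 529 against 707. Of the 906 clusters, 730 (80.6%) held both regions open in solvent and regions without a solvent peak, 86 (9.49%) were open in every list throughout, and 73 (8.06%) had no solvent peak at all.

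The cluster with the most regions, 15 over 112 kb on chromosome 5, was nearest to CARTPT, the gene of a neuropeptide precursor, for 8 of them. Of the 15, 9 were open in solvent and 10, 14 and 15 after 6, 24 and 72 h, and 5 of the 6 new ones lay between older ones, the last at the far end. The next 5 had 13 regions each and lay near KLF4, TGFB2, MAMLD1, KLF5 and KCNA4. The KCNA4 cluster, 672 kb from that potassium channel gene, grew most, from 6 regions in solvent to 10, 11 and 13. The KLF4 cluster, 217 kb from the gene, grew from 10 to 11, 13 and 13, and the KLF5 cluster had 12, 12, 13 and 12.

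Neighbours within these 6 clusters moved together to varying degrees. In the TGFB2 cluster, 70.4 kb long, 2 of 13 regions were lost, 3 had no solvent peak, and the 8 open in solvent and at 72 h had relative ratios from -1.55 to 0.67, 5 above and 3 below the median of all regions. In the KLF5 cluster 12 ratios ran from -1.05 to 1.17, 5 above and 7 below. The 2 regions at its 26 and 27 kb marks, 174 bp apart, had AUCs of 388 and 477 in solvent and of 951 and 302 at 72 h. In the CARTPT cluster 9 ratios ran from -0.68 to 1.32, 5 above and 4 below. In the MAMLD1 cluster 8 ratios ran from -0.49 to 1.46, 4 above and 4 below, and in the KCNA4 cluster 6 ran from -0.07 to 1.43, 4 above and 2 below. The KLF4 cluster was more even, from -0.32 to 0.50.

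**Figure D5:**
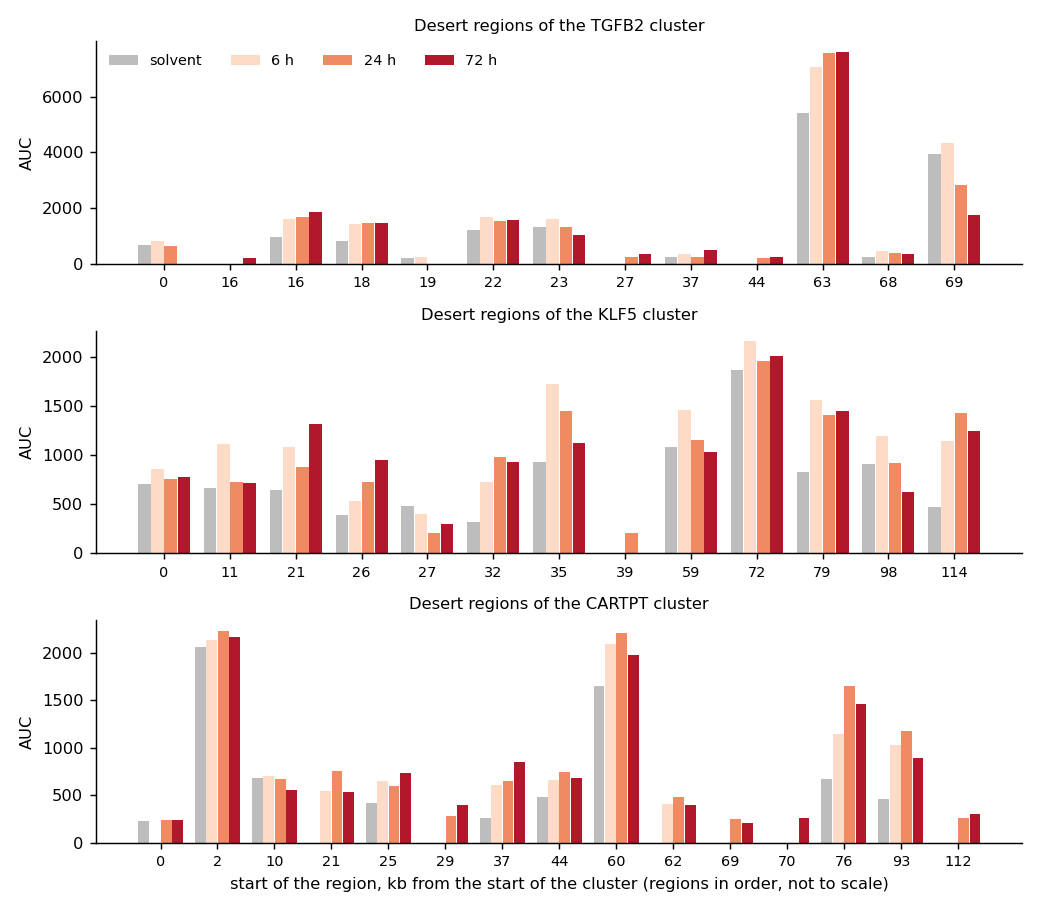
AUC in solvent and at 6, 24 and 72 h of each region in 3 desert clusters, in genome order, with the distance (kb) from the start of the cluster on the x axis. In the TGFB2 cluster the regions at 63 and 69 kb reach 7608 and 1765 at 72 h from 5428 and 3937 in solvent.

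Of the 73 clusters without a solvent peak, 3 are given, chosen as those with the most regions and the largest AUC after their values were seen. The cluster on chromosome 2, 179 kb from ACVR2A, an activin receptor gene, had 5 regions over 42.0 kb, of which 1 was open at 6 h, 5 at 24 h and 4 at 72 h. Its highest region reached an AUC of 682 at 72 h. A cluster of 5 inside the gene UBE2E2 had 2, 5 and 5 open, and a cluster of 4 near NSUN3 had 2, 4 and 3, with a highest AUC of 1388 at 72 h. In each of these at least 2 times as many regions were open at 24 h as at 6 h.

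Every desert region was given to the protein-coding gene with the nearest TSS, which does not show that it acts on that gene. This named 1414 genes, 7.08% of the 19970 protein-coding genes, with a median of 4 regions, and 260 genes with 10 or more took 50.5% of the regions. TRPS1, a GATA-type repressor, led with 43 regions, of which 27 were open in solvent and 37, 39 and 38 after 6, 24 and 72 h. SORCS1, a sorting receptor, had 39 (22, 32, 34 and 32 open), and PIK3C3, a lipid kinase of autophagy, 38 (25, 32, 34 and 38). TFAP2A, the AP-2α factor, also had 38 (23, 29, 33 and 35). In all of these the greatest step came at 6 h. EFNA5 had 37 (14, 26, 32 and 32), CNTNAP5, of the neurexin family, 35 (19, 24, 30 and 32), and PCDH7, a protocadherin, 35 (13, 23, 33 and 32). NR5A2, a nuclear receptor, had 33 (21, 25, 29 and 33), ADGRL3, an adhesion receptor, 32 (10, 22, 27 and 29), and KLF4 32 (21, 27, 31 and 31). At ADGRL3, PCDH7 and EFNA5 over 2 times as many regions were open at 72 h as in solvent, and at the other 7 genes fewer than that.

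Per Mb of desert the order of these genes was another. NR5A2 had 64.1 regions per Mb, KLF4 56.7 and TFAP2A 42.9, and PCDH7 had 15.5, ADGRL3 17.2, EFNA5 20.9 and CNTNAP5 24.3. The median relative log2 ratio at 72 h, over regions open in both lists, was 0.66 at EFNA5 (13 regions), 0.56 at ADGRL3 (10) and 0.54 at CNTNAP5 (17), against 0.03 at TFAP2A (22) and -0.03 at KLF4 (21). EFNA5, ADGRL3 and CNTNAP5 thus had fewer regions per Mb and higher ratios than TFAP2A and KLF4. At the remaining genes the ratio was 0.35 at PCDH7 (13), 0.26 at PIK3C3 (25), 0.15 at NR5A2 (21), 0.15 at TRPS1 (26) and 0.12 at SORCS1 (21). PCDH7 had the lowest density without the highest ratio, so the ratio did not follow density throughout. The solvent AUC of the regions was not taken into account.

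Of 42 listed developmental transcription factor genes, 25 (59.5%) were nearest to a desert region, with 272 regions, and of 40 neuronal and cell adhesion genes 32 (80.0%), with 383, against 7.08% of all protein-coding genes. The lists were chosen with such deserts in mind, so these counts are a description. At the factor genes 42.3% of regions (interval 36.6 to 48.2) had no solvent peak, and at the adhesion genes 56.9% (interval 51.9 to 61.8), beside 50.1% in all deserts. KLF5 had 31 regions with 23 open in solvent and 28 at 72 h, SOX11 17 with 11 and 17, and DACH1 16 with 9 and 16. Among adhesion genes FLRT2 had 31 with 11 open in solvent and 27 at 72 h, PCDH9 30 with 11 and 30, SLITRK1 21 with 10 and 21, and CDH9 18 with 6 and 18. More of the regions at adhesion genes lacked a solvent peak, though regions at 1 gene share a stretch of DNA and are not independent. That share also fell as the AUC rose, as given above, and the gene lists were not compared within AUC ranges.

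Genes of EMT itself were nearest to a desert region in a few cases. Of 29 mesenchymal genes 5 were (17.2%, interval 7.598 to 34.5, against 7.08% of all protein-coding genes). CDH2, N-cadherin, had 14 regions with 8 open in solvent and 14 at 72 h, TNC, tenascin-C, 8 with 4 and 7, ZEB2 5 with 2 and 5, POSTN, periostin, 3 with 1 and 2, and TWIST1 2 with 1 and 2. Median distances were 819 kb at CDH2, 474 kb at TNC, 1231 kb at ZEB2, 190 kb at POSTN and 106 kb at TWIST1. CDH2 is also in the adhesion list. The study found ZEB2 and the TWIST genes either silent or unresponsive to TGFβ1 in its MCF10A cells. Of 27 epithelial genes 2 were nearest to a desert region (7.41%), CXADR with 5 regions and TP63 with 3, and none of the 5 at CXADR was open in solvent. Of 36 TGFβ and BMP pathway genes 8 (22.2%) were. ACVR2A had 29 regions with 13 open in solvent and 24 at 72 h, TGFB2 17 with 10 and 15, BMP2, a ligand, 11 with 8 and 10, BMPR1B, a receptor, 9 with 3 and 9, INHBA, the activin A subunit, 8 with 4 and 8, and BMP4 6 with 4 and 6. Of 12 AP-1 factor genes 1 (8.33%) was, FOSL2, with 8 regions. The median relative log2 ratio at 72 h, over regions open in both lists, was 0.80 at INHBA (4 regions), 0.48 at BMPR1B (3), 0.26 at BMP4 (4), 0.11 at BMP2 (8), 0.10 at TGFB2 (8) and -0.07 at ACVR2A (12). Among the mesenchymal genes it was 0.60 at CDH2 (8), 0.33 at TNC (4) and 0.79 at ZEB2 (2), and POSTN and TWIST1 had 1 such region each, with 0.49 and 1.43. It was -0.22 at TP63 (2) and -0.10 at FOSL2 (3). All desert regions had a median of 0.25 at 72 h. The mesenchymal genes lay above that value, TNC by little, and the values of ZEB2, POSTN and TWIST1 rested on 1 or 2 regions. Of the pathway genes, INHBA and BMPR1B lay above it, BMP4 close to it, and BMP2, TGFB2 and ACVR2A below it.

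Only 20 desert regions lay over 1 Mb from every TSS. The 4 farthest stood within 11 kb on chromosome 1, 3593 to 3603 kb from LINC01691, and 3 of them were open in every list. The farthest, chr1:125183463-125184260, had an AUC of 3368 in solvent and of 2123, 2420 and 2563 after 6, 24 and 72 h, so that it was highest in solvent. Its printed sequence repeats the letters ATTCC, which occur 7 times on 1 strand, and the other 3 held 10 or 11 copies. At least 5 copies were found in 6 of the 8263 desert regions, in 2 intermediate and in 0 proximal regions. Reads from repeats can map to more than 1 place, which makes the AUC of these 4 regions uncertain. The remaining 16 lay on chromosomes 3, 6, 17 and X, near ALCAM, ZPLD1, EYS, WSB1, FAM133A and DIAPH2.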

How the data were processed

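ATAC-seq was done on 8 libraries of MCF10A cells, 2 for each of solvent and 6, 24 and 72 h of 5 ng/ml TGFβ1. The authors trimmed reads, mapped them to GRCh38, removed duplicates, mitochondrial reads and poorly mapped reads, and called peaks on both replicates of a group together. The submitters' processing notes name Trimmomatic 0.38, Bowtie2 2.4.5, Picard, SAMtools 1.4.1 and Genrich 0.5. The 4 deposited lists hold a signal value per peak, the AUC, with a minimum of 200, and deposited −log10 q values, of which the smallest was 2.81. Depth and width both raise the AUC, and the lists were not brought to a common scale. The study states a sequencing depth per sample, but the depth left after filtering is not given in the sources used here.

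Coordinates were used as deposited. Transcript starts of protein-coding and lncRNA genes came from GENCODE 44, a set that may differ from the one of the authors. Distances run from the edge of a region. AUC was summed per region and list. Intervals are Wilson intervals for shares, exact binomial intervals for ratios of counts and order-statistic intervals for medians, at 95%, and cover counting error only. Motifs were searched on both strands within 100 bp of the summit. The share of repeat bases was planned and not computed, since the genome used had no repeat marks. Named regions are the 5 of each pattern with the largest AUC or most extreme ratio (AUC of at least 400 in both lists for ratios), the region farthest from a TSS, the 6 clusters with the most regions, the 10 genes with the most regions and up to 6 genes per list. Of these, 1 region and a few listed genes are not reported here. The members, gene lists and rules were chosen with earlier results of these data known. Merging, patterns, distances, clusters and motifs were tested on simulated data. Scripts used Python 3.11.15 with pandas 2.3.3, numpy 2.4.6, matplotlib 3.10.9 and scipy 1.17.1.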

Additional observations from a re-analysis of the deposited data

How the results depend on the processing

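Of 76 values under alternatives, 25 stayed within the interval of the value given (or within 1.5 times for counts) and 51 moved. A change of direction was checked for the relative log2 ratio alone, which kept its sign under every alternative. The distance limit moved the counts most. Over 50 kb there were 19503 regions, 2243 clusters and 3185 genes, the 72 h to solvent ratio of peaks was 1.69, 50.6% were in every list, 19.1% in the 3 TGFβ1 lists, the median relative log2 ratio was 0.21, 41.9% lay inside a gene and 41.3% had AP-1. Over 200 kb the values were 2602, 263, 490, 1.92, 44.9%, unmoved, 0.29, 19.3% and 43.9%. With protein-coding TSSs alone they were 23063, 2670, 2558, 1.68, 51.1%, 18.9%, 0.22, 47.2% and 41.3%. With TSSs of every gene type they were 3880, 419, 863, unmoved, 46.4%, 21.2%, 0.28, 34.9% and unmoved. With a minimum AUC of 400 the peak ratio was 1.92, the patterns 45.0% and 21.7%, the median 0.22, AP-1 44.5% and the clusters 562. With lists of equal length they were 1.19, 58.8%, 8.15%, 0.28, unmoved and 565. Merging peaks up to 500 bp apart gave 49.0% in every list, and a peak over at least 50% of the region 41.7% and 23.7%. The AUC per base gave 0.12, a search of the whole region 47.3% with AP-1, the motif TGANTCA 54.6%, and protein-coding genes alone 20.9% inside a gene. Leaving out the regions inside genes, an alternative chosen after seeing the data, moved none of the 7 values computed.

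No paired analysis was possible because each list pools both replicates and carries no replicate number, and for the same reason no replicate was left out. The depth after filtering was unknown, so a site without a peak is one that did not reach AUC 200 and is not shown to be closed.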

Other observations

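The share of desert regions without a solvent peak differed by chromosome. Among chromosomes with over 100 desert regions it ran from 42.5% of 134 on chromosome 20 and 46.4% of 599 on chromosome 1 to 54.1% of 809 on chromosome 4 and 54.2% of 487 on X. Chromosome 21 had 68.4% of 38 regions. Among chromosomes with a desert region, density ran from 2.68 regions per Mb of desert on chromosome 22 to 24.9 on chromosome 1. Of the desert regions, 100 (1.21%) lay outside every protein-coding and lncRNA gene and touched a gene of another type.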
